A study of Mus musculus with 44 samples.

Results

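Skin from 6 female C57Bl/6 wild-type mice that had received bleomycin for 4 weeks and had then been left without it for 6 weeks was compared with skin from 10 mice taken at 4 weeks of bleomycin, to describe which gene expression changes of the treatment had receded after it was stopped and which had not. These 16 mice were chosen by their labels from the 44 mice of the series. Bleomycin was injected under the back skin every day, 100 µL at 1 U/mL, starting at 8 weeks of age, as the labels give it. A supplement of the study states a lower concentration. The mice were therefore 12 weeks old at 4 weeks of bleomycin and 18 weeks old after recovery, and age, the time since the last injection and recovery itself cannot be told apart. The 10 mice injected with saline are shown beside them as the background level. Their age at harvest and the hour of day of each harvest are not given in the sources used here. Each sample was one part of a whole skin biopsy of a separate mouse, so it held epidermis, hair follicles, dermis, dermal fat and the thin muscle layer under the skin.

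Bleomycin breaks DNA and is given to mice to make a model of systemic sclerosis, in which inflammation precedes thickening of the dermis. In such skin, interferon and chemokine genes mark the inflammatory phase, monocytes enter and become macrophages, and fibroblasts secrete collagen and the matricellular proteins that sit between collagen and cells. Hair follicles cycle between growth and rest, and their keratins are made during growth, so the level of those genes also follows the stage of the hair cycle.

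Values are normalized counts, which are reads per gene divided by 1 size factor per mouse. Log2 differences and their standard errors (SE) refer to log2(normalized count + 1) in a limma fit across all 44 mice. Reads on genes ranged from 8509094 to 13902575 per mouse at 4 weeks of bleomycin and from 11019337 to 15285577 after recovery. The median correlation of each mouse with the others of its own group was 0.965 to 0.984 and 0.969 to 0.985, respectively, and no pair of samples was as alike as a library sequenced again would be. Skin was the tissue by its markers, with the basal keratin Krt5 at 56195 normalized counts or more in all 16 mice, and skeletal muscle was present in all of them, with the muscle actin Acta1 at 31264 or more.

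Of 17037 genes tested, 1217 (7.14%) were lower and 818 (4.80%) were higher after 6 weeks of recovery than at 4 weeks of bleomycin, at an adjusted p-value below 0.05 and a change of more than 1.5-fold in either direction. Those are the criteria for every gene called a differentially expressed gene (DEG) here, and only such genes are said to have risen or fallen. In 1029 of these DEGs the 2 groups did not overlap, 639 of them lower and 390 higher. At 4 weeks of bleomycin against saline, 1797 genes (10.5%) were higher and 1256 (7.37%) were lower. After recovery against saline, 567 (3.33%) were higher and 292 (1.71%) were lower. These last 2 counts depended on single mice, being 354 and 150 without recovery mouse 5. They were 438 and 204 without recovery mouse 3, and 600 and 437 without recovery mouse 4. The 3 comparisons share mice, so their values are given side by side for each gene and not correlated. The median log2 difference of all genes between recovery and bleomycin was -0.001. The counts of DEGs in the lists below stand beside these shares over all genes, and a list with few DEGs can lie near them.

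**Figure D1:**
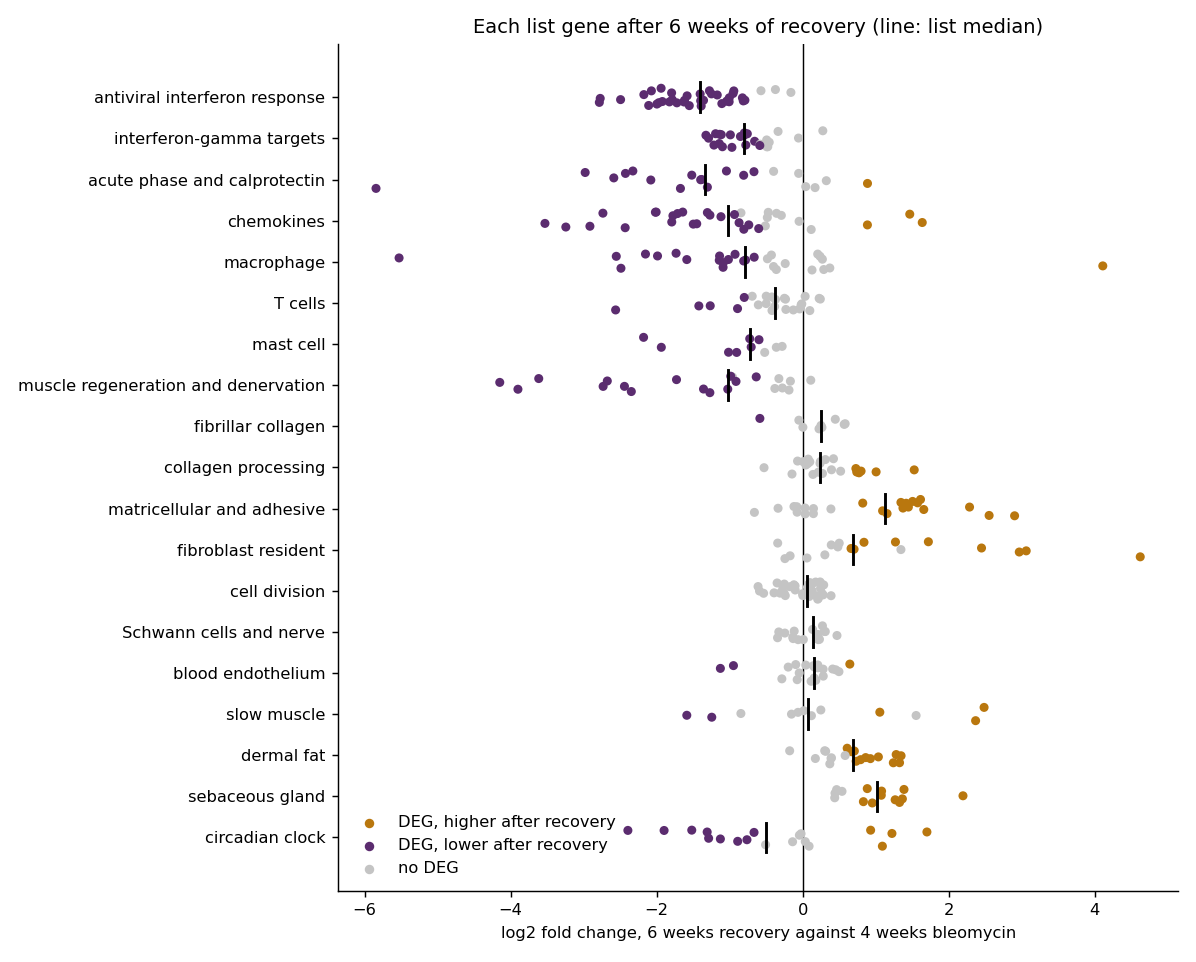
Each point is 1 gene of a list at its log2 fold change between 6 weeks recovery (n = 6) and 4 weeks bleomycin (n = 10), with DEGs in colour (purple lower, orange higher), other genes in grey and a short line at the median of each of 19 lists. Interferon, chemokine and muscle regeneration genes lie to the left, sebaceous, fat and matricellular genes to the right, and no Schwann cell or cell division gene is coloured.

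**Figure D2:**
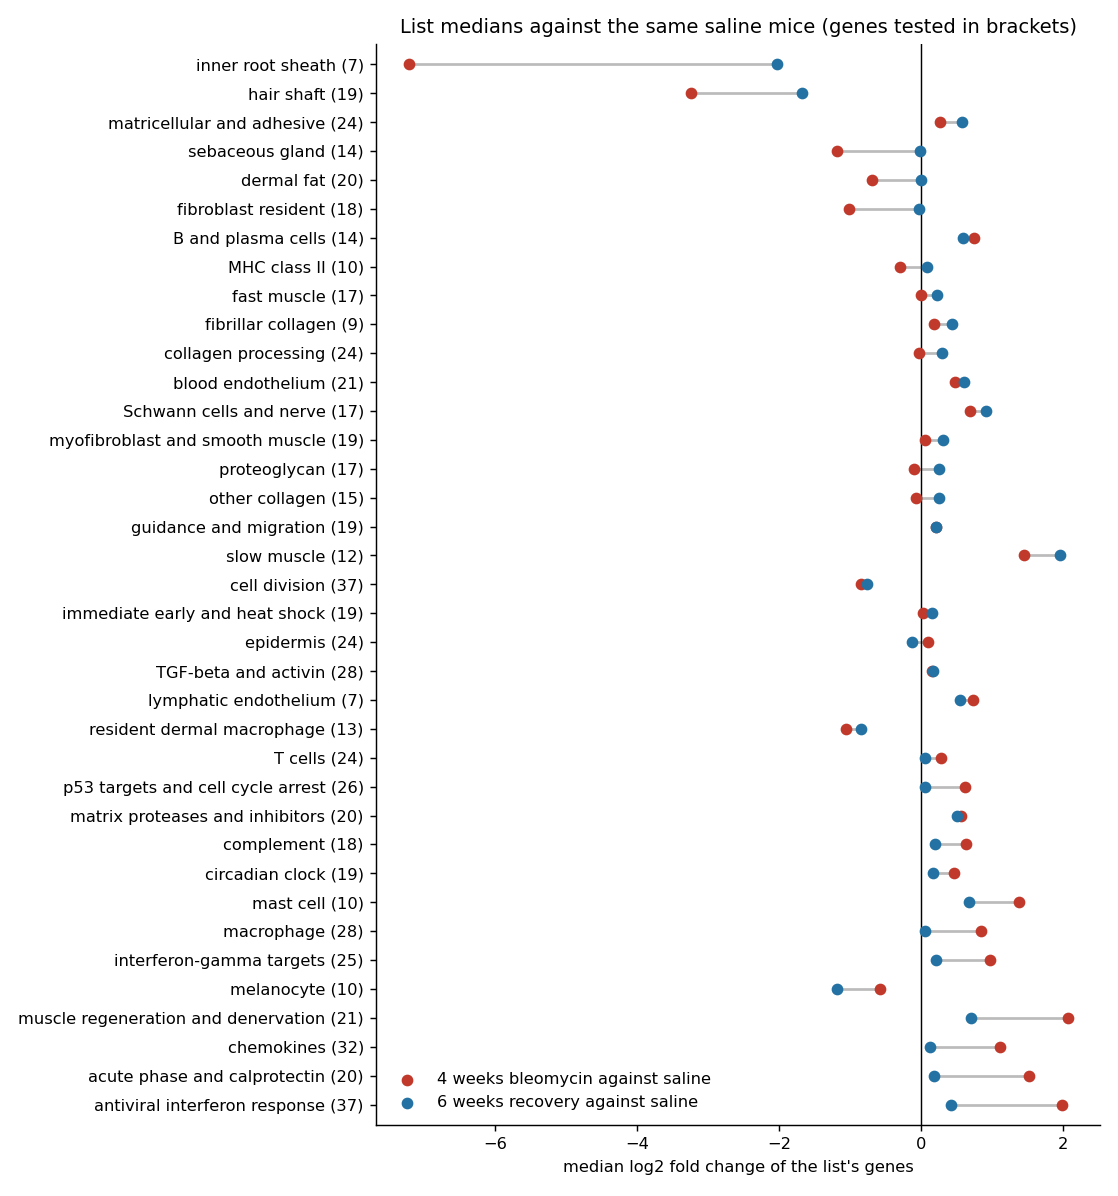
The median log2 fold change of each of 37 gene lists is plotted for 4 weeks bleomycin (red) and 6 weeks recovery (blue) against the same 10 saline mice, with the number of genes tested in brackets. The antiviral interferon list is at 1.98 at 4 weeks of bleomycin and 0.42 after recovery, whereas the Schwann cell list is at 0.70 and 0.92.

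The interferon programme fell towards the saline level. Of 37 antiviral interferon genes, 34 fell after bleomycin was stopped and 0 rose, with a median log2 difference of -1.40. At 4 weeks of bleomycin 36 of them were above saline, with a median of 1.98, and after recovery 11 were, with a median of 0.42. By role, 8 of 9 sensors and transcription factors fell, 21 of 23 RNA-binding and replication-blocking effectors, and 5 of 5 genes of ISG15 conjugation and its removal. In whole skin, fewer cells of a type and less RNA per cell cannot be told apart, here and for every group below.

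Many of these genes are switched on by factors that bind short motifs before the gene's start, so the promoters of 4 of the genes that fell are shown. Sequences are from RefSeq (GRCm38.p6), 200 bases each, written 5′ to 3′ on the gene's strand, and capitals mark the core of the interferon-stimulated response element, GAAANNGAA on either strand, or in Gbp7 the interferon-gamma activated site, TTCNNNGAA. Where matches overlap, the capitals run over both.

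Isg15, chr4:156200769-156200968, minus strand: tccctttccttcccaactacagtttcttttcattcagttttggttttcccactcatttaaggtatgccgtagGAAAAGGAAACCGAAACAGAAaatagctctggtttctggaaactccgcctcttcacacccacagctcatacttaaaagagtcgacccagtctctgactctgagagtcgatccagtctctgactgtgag

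Ifit1, chr19:34640739-34640938, plus strand: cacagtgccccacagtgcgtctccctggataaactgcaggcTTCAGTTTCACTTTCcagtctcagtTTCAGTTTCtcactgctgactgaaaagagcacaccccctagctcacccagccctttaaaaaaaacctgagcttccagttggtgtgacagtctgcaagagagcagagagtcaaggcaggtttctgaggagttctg

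Irgm1, chr11:48871371-48871570, minus strand: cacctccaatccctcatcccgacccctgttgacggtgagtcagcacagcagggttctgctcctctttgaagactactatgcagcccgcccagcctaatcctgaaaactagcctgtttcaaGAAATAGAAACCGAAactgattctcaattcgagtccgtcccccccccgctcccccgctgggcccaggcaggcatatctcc

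Gbp7, chr3:142530186-142530385, plus strand: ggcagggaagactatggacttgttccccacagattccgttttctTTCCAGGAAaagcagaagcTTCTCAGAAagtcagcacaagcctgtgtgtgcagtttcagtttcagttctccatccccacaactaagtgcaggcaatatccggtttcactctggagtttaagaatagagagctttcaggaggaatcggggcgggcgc

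Distances are given to the first printed letter of each match. The 3 overlapping response element matches of Isg15 begin 66 to 78 bases before its start. The 3 of Ifit1 begin 84 to 109 bases before its start, and the 2 of Irgm1 24 to 30. The 2 activated sites of Gbp7 begin 87 to 106 bases before its start. In windows from 250 bases before to 50 after a start, the response element core was found in 16 of the 28 antiviral genes with a promoter in the table (57.1%) and in 11 of 18 interferon-gamma genes (61.1%), and in 9.8% of all 27025 genes. The activated site was found in 6 antiviral genes (21.4%), 9 interferon-gamma genes (50%) and 9.6% of all genes. A match of letters is a description of the sequence and not a site shown to be bound.

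Isg15, the ubiquitin-like protein that interferon attaches to other proteins (chr4:156199424-156200818, GRCm38), had a lowest, median and highest value of 348, 639 and 827 normalized counts at 4 weeks of bleomycin and 117, 146 and 258 after recovery. No recovery mouse reached the lowest bleomycin mouse, but all 6 were above the highest saline mouse, at 113. The log2 difference from bleomycin was -1.94 ± 0.20 (SE, adjusted p = 4.5e-10), and that from saline was still 0.77 ± 0.20 (adjusted p = 0.011), a call lost without recovery mouse 1. Mx1, a GTPase gene of the antiviral list, went from 365, 509 and 792 to 58.3, 73.3 and 98.2, and here the recovery mice lay within the saline range of 37.0 to 144. Its difference was -2.78 ± 0.20 (adjusted p = 1.8e-14) from bleomycin and 0.06 (95% interval -0.35 to 0.46) from saline. Irf7, the transcription factor that amplifies the interferon response, fell by 2.49 on the log2 scale, from a median of 2586 to 420, with no overlap. Ifit2, an RNA-binding inhibitor of translation, fell by 2.17, from a median of 680 to 140, and the lowest bleomycin mouse, at 495, was above the highest recovery mouse, at 168.

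Those of the antiviral genes that stayed above saline were Ifit1, Ifit3 and Ifit3b, Oasl2, Mx2, Bst2, Ifi44, Ifi27l2a, Rtp4, Isg15 and Usp18, the protease that removes ISG15. Ifi44 remained 1.17 above saline on the log2 scale (adjusted p = 7.6e-05) after falling by 1.55. Ifi27l2a did not pass the test against bleomycin, at -0.16 (95% interval -0.57 to 0.25), and was 0.88 above saline. Without recovery mouse 1, the mouse with the highest mean over the list, 7 rather than 11 genes were above saline.

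Of 25 genes induced by interferon-gamma that could be tested, 17 fell and 0 rose, with a median of -0.80. All 8 guanylate-binding proteins and all 7 immunity-related GTPases, families that attack vesicles holding pathogens, were among them. These families hold near copies of each other, so their values per gene are uncertain. Irgm1 fell by 1.32, from a median of 892 to 344 normalized counts, and Gbp7 by 1.14, from 564 to 234, each without overlap between the groups. Of the other 10 members, Irf8 and the peptide transporter gene Tap1 passed the test. Tap1, at -0.59, lay at the fold threshold and lost the call when any of 8 bleomycin or recovery mice was left out. None of the 25 was a DEG between recovery and saline. Interferon-gamma itself was below the filter on low values.

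Acute phase and calprotectin genes fell in the same mice, with 14 of 20 lower, 1 higher and a median of -1.34. Saa3, the serum amyloid A gene made by macrophages and skin cells (chr7:46711998-46715700), had values of 75.8, 409 and 2317 at 4 weeks of bleomycin and 0, 8.21 and 10.9 after recovery. The groups did not overlap, and the difference was -5.84 ± 0.67 (adjusted p = 5.1e-09). It was 0.61 from saline (95% interval -0.73 to 1.96), where the median was 3.57. Saa2 had 0 reads in all 6 recovery mice, which against a floor of 3 reads over the group made it at least 13.3-fold lower than the bleomycin mean of 6.01, and the list's median was the same with this bound. Saa1 and Saa2 are near copies and may share reads.

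The metal-binding proteins of neutrophils and inflamed epithelium all fell, 6 of 6. Lcn2, which captures bacterial iron carriers, went from a median of 315 to 34.5, a fall of 2.98 without overlap, and the calprotectin subunits S100a8 and S100a9 fell by 2.08 and 2.59. Haptoglobin, Hp, fell by 1.30, from a median of 7210 to 2988. Of 11 cytokine and receptor genes only 5 fell and 1 rose, with a median of -0.40. Among those that fell were Il6, by 1.52, Il1b, by 1.40, Osm, by 1.67, and Tnf, by 1.04. The alarmin Il33 did not pass the test at 0.33 and was 1.02 above saline after recovery.

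Chemokines and their receptors gave the same picture, with 21 of 32 lower, 3 higher and a median of -1.03. Ccl2, which draws monocytes through Ccr2, went from 484, 574 and 820 to 119, 151 and 200 normalized counts. The groups were far apart, with a difference of -2.01 ± 0.20 (adjusted p = 8.1e-11), and Ccl2 was 0.69 above saline (adjusted p = 0.020). The neutrophil chemokines Cxcl2 and Cxcl5 fell by 3.53 and 2.91, Ccl4 by 3.24 and Ccl3 by 2.73. The receptors that fell included Ccr1, Ccr2, Ccr7, Cxcr2, Cxcr4 and Cx3cr1. Cxcr2 lost the call without recovery mouse 5 and Cxcr4, at -0.60, without any 1 of 6 mice. In the other direction, Cxcl14, a chemokine that resting skin makes constantly, went from 499, 835 and 958 up to 2098, 2276 and 2940, a rise of 1.64 ± 0.15 (adjusted p = 4.0e-11) without overlap. Its value was -0.06 from saline (95% interval -0.37 to 0.25). Cxcl12 rose by 0.89 and Ccl24 by 1.47. The 3 chemokines above saline after recovery, Ccl2, Cxcl1 and Cxcl11, all lost that call without recovery mouse 5.

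**Figure D3:**
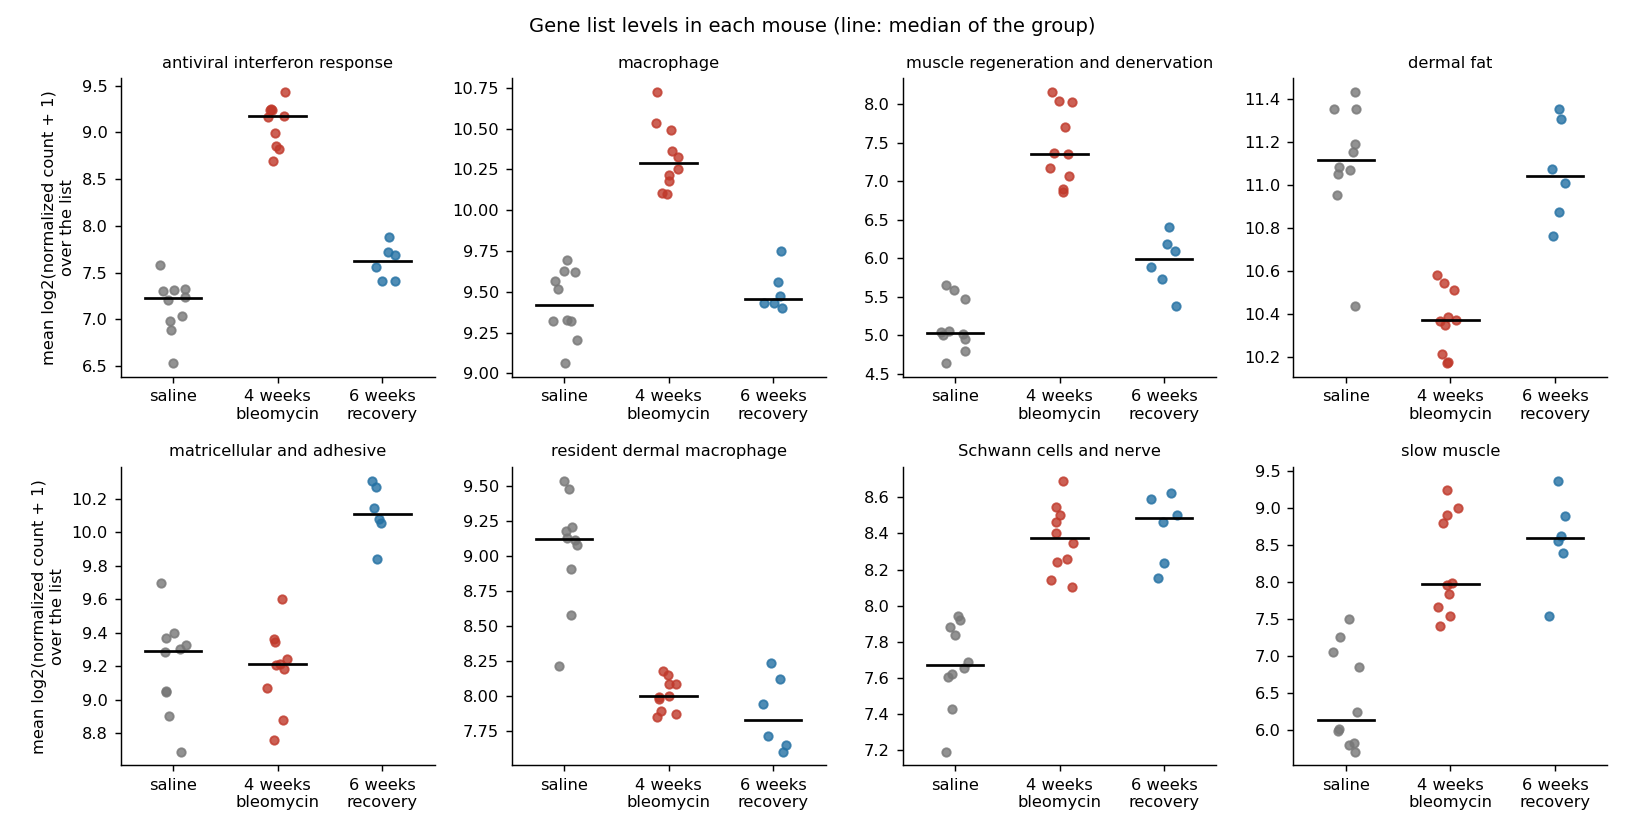
The log2(normalized count + 1), averaged over the genes of 8 lists, is plotted for each mouse (points) with the group median (line) in saline, 4 weeks bleomycin and 6 weeks recovery, each list on its own axis. The antiviral interferon mean is 8.69 to 9.43 in bleomycin mice and 7.41 to 7.89 in recovery mice, whereas the Schwann cell mean is 8.10 to 8.69 and 8.15 to 8.63, above all saline mice, whose highest is 7.94.

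General macrophage markers fell in 11 of 12 cases, and over the whole macrophage list 16 of 28 genes fell and 1 rose, with a median of -0.79. Chil3, a chitinase-like protein of recruited macrophages (chr3:106147554-106167564), went from 43.5, 148 and 317 to 1.03, 2.16 and 3.08 normalized counts. The recovery mice lay within the saline range of 0 to 8.29, and the difference from bleomycin was -5.53 ± 0.39 (adjusted p = 1.2e-14). Ly6c2, a marker of inflammatory monocytes with a near copy in Ly6c1, fell by 4.71 from a median of 876 to 24.3, and the inhibitory receptor Cd300lf fell by 4.65. Fcgr1, a high-affinity IgG receptor, fell by 2.49 and Aif1 by 1.73. Retnla, a secreted product of alternatively activated macrophages, moved the other way, from 49.5, 123 and 359 to 1341, 2359 and 3504, a rise of 4.11 ± 0.40 (adjusted p = 6.5e-11).

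Of 10 genes of lipid-handling and scar macrophages, 3 fell and 0 rose, with a median of -0.015. Spp1, osteopontin, fell by 2.55 ± 0.19 (adjusted p = 2.9e-14), from 554, 678 and 954 to 87.4, 123 and 149, and yet was 1.09 above saline (adjusted p = 0.00013), whose highest mouse was at 88.9. Trem2, a lipid-sensing receptor, fell by 1.99 and stayed 1.06 above saline. The protease Ctsk did not fall, at 0.29, and was 1.16 above saline.

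Markers of the macrophages that live in normal dermis did not come back. Of 13, 9 were below saline at 4 weeks of bleomycin and 8 after recovery, with medians of -1.06 and -0.85. Cd209b, a lectin of these macrophages (chr8:3917655-3926844), was at 166, 275 and 495 in saline, 44.9, 84.9 and 108 in bleomycin and 39.1, 58.1 and 107 in recovery mice. All 16 mice lay below the lowest saline mouse. The recovery value was -2.28 ± 0.23 from saline (adjusted p = 1.1e-09) and -0.48 from bleomycin (95% interval -0.94 to -0.03, adjusted p = 0.11). Its relatives Cd209f and Cd209g fell further after bleomycin was stopped, by 0.76 and 0.80, to 2.67 and 2.68 below saline. Both calls were lost without recovery mouse 3, that of Cd209g also without recovery mouse 1 or 4, and reads may be shared within the CD209 family.

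Cd163, the haemoglobin scavenger receptor, gave the same order, with 478, 962 and 1828 in saline, 189, 285 and 451 in bleomycin and 215, 258 and 456 in recovery mice. It differed by -0.05 between the last 2 groups (95% interval -0.55 to 0.44) and by -1.76 from saline. Timd4 was 2.02 and Folr2 0.85 below saline. Mgl2 was the exception, rising by 1.01 ± 0.17 (adjusted p = 9.6e-06) to a level -0.10 from saline.

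Among 24 T cell genes, 5 fell and 0 rose, and none of the 11 genes of the receptor complex was called. Those that fell were the effector gene Gzmb, Ctla4 and Foxp3 of regulatory cells, the costimulatory receptor Icos and the T cell surface protein Cd6. The protease gene Gzmb went from a median of 46.3 to 6.42, a fall of 2.56 without overlap, and Foxp3, which defines regulatory T cells, from 86.5 to 31.7, a fall of 1.26. Icos lost the call without any 1 of 9 mice and Cd6 without any 1 of 5, both without recovery mouse 1 or 4 or bleomycin mouse 4 or 7. T cell receptor constant region Trbc2 differed by 0.04 (95% interval -0.33 to 0.40).

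Antibody genes followed no single direction. The immunoglobulin G1 constant region Ighg1 rose by 2.39, Ighm by 0.65, and Ighg2b fell by 2.31. Ighm lost the call without any 1 of 7 mice, whereas Ighg1 and Ighg2b kept it whichever mouse was left out. Jchain, the joining chain of secreted IgA and IgM, stood at 3.42, 6.80 and 122 in saline, 11.7, 84.3 and 136 in bleomycin and 71.5, 140 and 347 in recovery mice. It was 3.57 ± 0.59 above saline (adjusted p = 7.4e-05) and 1.25 from bleomycin (95% interval 0.06 to 2.45, adjusted p = 0.12). The light chain Igkc was 3.43 and Igha 3.11 above saline, neither of them a DEG against bleomycin. Immunoglobulin genes resemble each other closely, so these values are uncertain.

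Mast cell genes fell in 7 of 10 cases with a median of -0.71, but 5 were still above saline. Fcer1a, the alpha chain of the IgE receptor, went from 60.9, 117 and 134 to 22.4, 25.1 and 33.7, a fall of 1.94 ± 0.35 (adjusted p = 4.6e-05). All 6 recovery mice were above the highest saline mouse, at 13.3, and the fitted difference from the saline group was 2.03. The chymase Cma1 fell by 0.90, from a median of 1620 to 809, and stayed 0.68 above saline. Complement genes fell in 8 of 18 cases and 1 rose. The anaphylatoxin receptors C3ar1 and C5ar1 fell by 2.20 and 1.10, and the C1q chains C1qa, C1qb and C1qc by 0.66 to 0.85. The inhibitor Cfi, at 1.56, and C2, at 0.92, remained above saline, Cfi not without recovery mouse 1 or 2. C1qc was not called without bleomycin mouse 4. Of 10 MHC class II genes 1 was called, H2-Oa, higher by 0.67, and that call was lost without recovery mouse 2, recovery mouse 6 or bleomycin mouse 2.

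Among genes that p53 induces after DNA damage, some fell. Of 26 genes of the p53 and arrest list, 7 fell and 2 rose, with a median of -0.38. Mdm2, the ligase that degrades p53, was at 852, 980 and 1066 in bleomycin and 564, 618 and 651 in recovery mice, with a difference of -0.70 ± 0.05 (adjusted p = 2.0e-13) and no overlap. It was 0.08 from saline (95% interval -0.03 to 0.19). Trp53inp1 fell by 1.33, Pmaip1 by 1.55 and Bax by 0.73, the last 2 being triggers of apoptosis. Eda2r, a receptor that p53 induces, did not pass the test, at -0.34, and was 1.30 above saline.

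Cdkn2a, which encodes the arrest proteins p16INK4a and p19ARF (chr4:89274471-89294653), went further from saline after bleomycin was stopped. It had 0, 1.25 and 4.74 normalized counts in saline, 11, 19.8 and 39.3 at 4 weeks of bleomycin and 82.5, 113 and 194 after recovery. The lowest recovery mouse was thus above the highest bleomycin mouse, and the lowest bleomycin mouse above the highest saline mouse. It was higher by 2.57 ± 0.35 than in bleomycin (adjusted p = 3.5e-07) and by 5.78 ± 0.35 than in saline (adjusted p = 7.1e-16). Counts per gene cannot separate its 2 transcripts, and the recovery mice were also older. Cdkn2c rose by 0.75 to the saline level, at 0.03 from it, and Cdkn1a, p21, was not called at -0.46.

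Cell division genes were not called in either direction. Of 37, 0 rose and 0 fell, with a median of 0.07, while 23 were below saline at 4 weeks of bleomycin and 23 after recovery, with medians of -0.85 and -0.77. All 13 spindle and cytokinesis genes and 10 of 12 cyclins and kinases were below saline at 4 weeks, and 0 of 12 replication licensing genes. After recovery 11, 8 and 4 were, and the median of the licensing genes was -0.21 from saline at 4 weeks and -0.43 after recovery, with none called between the 2 groups. Top2a, the topoisomerase of dividing cells, was at 597, 931 and 2368 in saline, 297, 485 and 855 in bleomycin and 383, 505 and 725 in recovery mice. The last 2 groups overlapped almost fully, with a difference of 0.00 (95% interval -0.42 to 0.42), and recovery was 0.98 below saline (adjusted p = 0.0019). The count after recovery rested on 1 mouse, falling from 23 to 12 without recovery mouse 5, whose hair keratins were the lowest of its group. Growing hair follicles hold many dividing cells, and the part of the hair cycle in these values was not tested.

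Muscle genes separated into those that fell and those that did not. Of 21 genes of muscle regeneration and denervation, 14 fell and 0 rose, with a median of -1.03, and 19 had been above saline at 4 weeks. Actc1, the embryonic actin, went from 556, 1016 and 2941 to 36.6, 70.0 and 105, a log2 difference of -4.15 ± 0.43 (adjusted p = 4.5e-10) into the saline range of 33.1 to 127. Mymk, the membrane protein that fuses muscle precursors, fell by 3.61, from a median of 141 to 15.1. Chrng, the fetal subunit of the acetylcholine receptor, fell by 3.90, from a median of 70.2 to 4.17. Pax7, of satellite cells, fell by 1.73.

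Chrna1, the alpha subunit of the muscle acetylcholine receptor (chr2:73563215-73580338), fell by 2.35 ± 0.19 (adjusted p = 5.8e-13), from 307, 466 and 790 to 67.4, 88.3 and 138, and remained 0.93 above saline, where no mouse exceeded 65.2. The myogenic factor Myog fell by 0.91, a call lost without any 1 of 7 mice, and stayed 2.18 above saline. Ankrd1, a stretch-induced gene, was not called at -0.96 (95% interval -1.71 to -0.21, adjusted p = 0.052) and was 3.53 above saline. In all, 10 of the 21 were above saline, but 6 without recovery mouse 5.

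Slow-fibre genes stayed up. Of 12, 8 were above saline at 4 weeks of bleomycin and 10 after recovery, with medians of 1.45 and 1.95, while 3 rose and 2 fell between them. Tnnt1, slow troponin T, was at 30.3, 81.4 and 163 in saline, 176, 468 and 1297 in bleomycin and 223, 425 and 876 in recovery mice. Both groups lay wholly above saline and overlapped each other, with a difference of -0.06 (95% interval -0.91 to 0.78) and a value 2.70 ± 0.42 above saline (adjusted p = 2.8e-05). Slow troponin C, Tnnc1, was 4.37 above saline and Tnni1, which fell by 1.59, was 2.41 above it. The slow myosin Myh7 had a median of 18.3, 81.8 and 576 in the 3 groups and was 4.90 above saline, but its rise of 2.49 after bleomycin lay at the threshold (adjusted p = 0.05) and lost the call without any 1 of 11 mice. Without recovery mouse 5, 1 rather than 3 genes rose, and without recovery mouse 6, 1 rather than 2 fell. Among 17 fast-fibre genes, 1 was called, Pvalb, which rose by 0.92, and the mean of the list was 12.9 to 13.7 in bleomycin and 13.4 to 14.1 in recovery mice.

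Of 24 epidermal genes, 6 fell and 0 rose, most of them known from stressed or wounded epidermis. Krt6b, a keratin of wounded epidermis with a near copy in Krt6a, went from 314, 966 and 9298 to 8.20, 44 and 172, a fall of 5.01 ± 0.74 (adjusted p = 1.3e-06) without overlap. Krt16 fell by 2.13 and the cornified envelope genes Sprr2d, Sprr1b and Lce3a by 2.08 to 2.85. Among the resting keratins Krt2 fell by 1.61, a call lost without recovery mouse 3 or 5. Basal Krt5, at 0.04, and Krt14, at -0.11, were not called. The stefin A genes BC100530 and Stfa1, protease inhibitors of neutrophils and skin that are near copies, fell by 5.09 and 4.48.

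Hair keratins rose as a group but not in every mouse. All 7 inner root sheath keratins rose with a median of 5.69, and none was called against saline. The hair shaft list held keratins and growth regulators, and 12 of its 19 genes rose, with a median of 1.96. Of its 11 keratins 9 rose, with a median of 4.51, and of its 8 growth regulators 3, with a median of 0.90. None of these keratins was called against saline, and the 1 gene of the list that was is the growth regulator Shh. The list's count against saline was 0 without recovery mouse 1 or 5 and 5 without recovery mouse 4. It was 3 by edgeR and 6 by DESeq2, and the list's median was -1.67 from saline. Krt71, of the inner root sheath (chr15:101733949-101743109), was at 916, 18455 and 94352 in saline, 3.80, 19.6 and 2181 in bleomycin and 14.4, 4724 and 44960 in recovery mice. The groups overlapped, and the difference was 5.75 ± 1.33 (adjusted p = 0.0011). Recovery was -2.32 from saline, with a 95% interval of -5.0 to 0.37 that is too wide to show either a return or a lag.

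The inner root sheath mean was 13.1 in recovery mouse 4, 10.4 in mice 1 and 6, 9.07 and 8.99 in mice 2 and 3, and 2.83 in mouse 5. In bleomycin mice it was 1.79 to 4.92 in 8 mice, 8.64 in mouse 3 and 7.63 in mouse 8. Recovery mouse 5 thus lay with the low bleomycin mice and 2 bleomycin mice lay near the recovery mice. Shh, the signal that starts hair growth, was not called, at 0.22, and was 2.28 below saline (adjusted p = 0.036), a call lost without any 1 of 5 recovery mice, all but mouse 4. Of 10 pigment genes, which melanocytes of growing follicles make, 0 were called in the fit across 5 groups, against bleomycin or saline. Against bleomycin edgeR and DESeq2 also called 0. Against saline each of them called 6 lower at 4 weeks of bleomycin, and after recovery edgeR called 3 lower and DESeq2 7. In a fit with the 2 groups alone Tyrp1, Pmel and Dct were lower after recovery, at -0.70 to -1.06 (adjusted p = 0.0078 to 0.021), although recovery mouse 4 was the highest of its group.

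**Figure D4:**
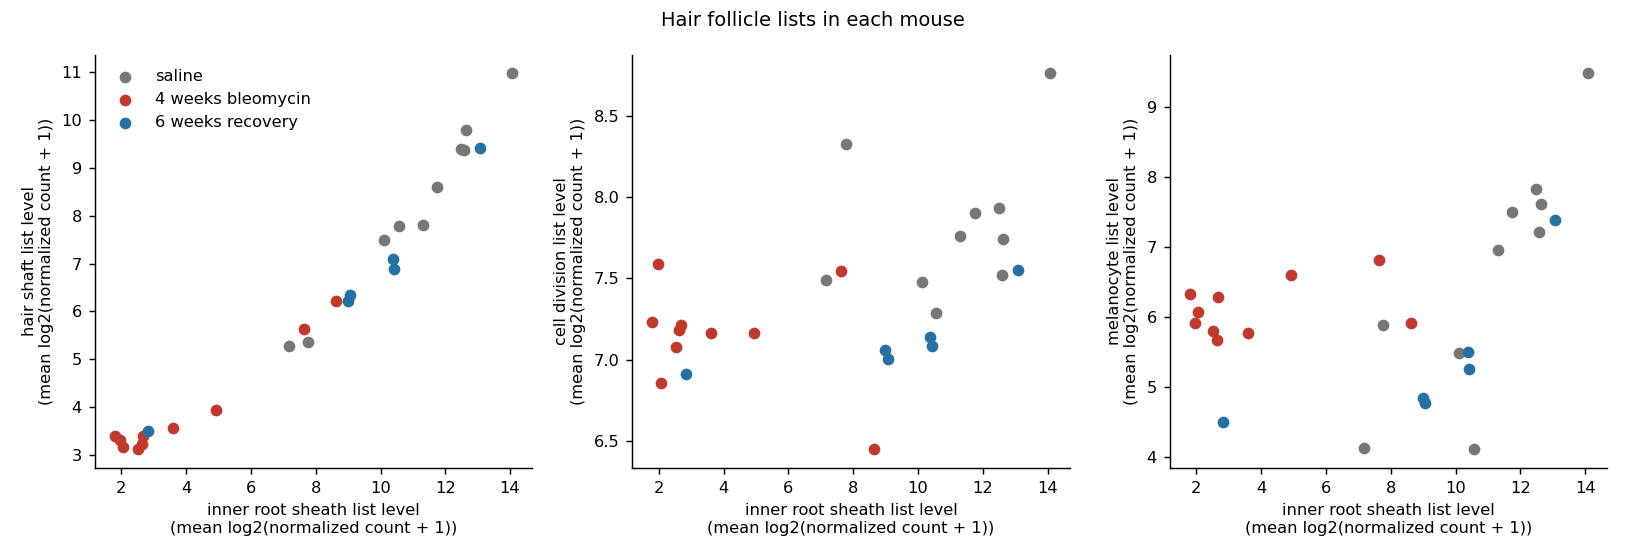
Each point is 1 mouse of the saline, 4 weeks bleomycin or 6 weeks recovery group, with the log2(normalized count + 1) averaged over the inner root sheath keratins on the horizontal axes and over the hair shaft, cell division and melanocyte lists on the vertical axes. The recovery mouse at 13.1 on the horizontal axis is mouse 4 and the one at 2.83 is mouse 5, and bleomycin mice 3 and 8, at 8.64 and 7.63, stand apart from the other 8 of their group.

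Sebaceous gland and fat genes rose to levels not called against saline. In the sebaceous list 10 of 14 rose and 0 fell, with a median of 1.02, and in the fat list 12 of 20 rose and 0 fell, with a median of 0.69. None of either list was a DEG between recovery and saline. Scd3, a fatty acid desaturase of sebaceous glands, went from 448, 709 and 911 to 2486, 3229 and 3815, a rise of 2.20 ± 0.24 (adjusted p = 2.3e-09) that left it 0.28 from saline. Soat1, which esterifies cholesterol, rose by 0.95. Leptin, Lep, rose by 1.24, from a median of 144 to 295, and the lipogenic enzymes Fasn and Acly by 1.28 and 0.71. Adiponectin, Adipoq, was not called, at 0.30. The steroid enzyme Akr1c18 rose by 3.64, from 39.3, 89.6 and 141 to 716, 1121 and 1342, and the cytochrome P450 Cyp2g1 by 5.21, from a median of 67.0 to 2793. The saline medians were 1391 and 5060.

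Clock genes moved as a set with opposite signs. Of 19, 9 fell and 4 rose. The repressors Per1, Per2 and Per3 fell by 1.31 to 1.90 and the output factor Dbp by 2.39 ± 0.20 (adjusted p = 3.2e-12), while the activators Arntl and Npas2 rose by 1.22 and 1.70. Arntl was at 231, 268 and 331 in bleomycin and 593, 630 and 709 in recovery mice, without overlap. None of the 19 was a DEG between recovery and saline, while 9 were higher and 4 lower in bleomycin than in saline. Of 19 immediate early and heat shock genes, 2 rose and 1 fell, beside 4.80% and 7.14% of all genes. Hsph1 rose by 0.77 and Egr3 by 0.59, and Fos fell by 0.89. Egr3 lay at the fold threshold and lost the call without any 1 of 6 mice. Clock genes change over the day, and the hours of harvest are not given in the sources used here, so the hour and the treatment cannot be told apart.

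Most genes of a list for resident dermal fibroblasts had been low at 4 weeks of bleomycin, with 12 of 18 below saline and 2 above. Of the 18, 9 rose and 0 fell, with a median of 0.68. By role, 8 of 12 genes grouped as adventitial and reticular markers rose, with a median of 1.06. Of 6 grouped as WNT antagonists 1 rose, with a median of 0.35. Pi16, a marker of adventitial fibroblasts, was at 1887, 4689 and 5475 in saline, 323, 510 and 980 in bleomycin and 3576, 4019 and 5107 in recovery mice. It rose by 2.97 ± 0.27 (adjusted p = 1.2e-11) to -0.02 from saline (95% interval -0.55 to 0.52). Clec3b rose by 2.45 and Dpt, dermatopontin, by 1.27, and neither was called against saline. The extracellular protein Hmcn2, hemicentin, which is outside this list and was not assigned to a cell type here, rose by 3.11, to 0.36 from saline.

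Some fibroblast genes rose past saline and others did not rise. The WNT antagonist Sfrp4 went from 10.2, 34.0 and 71.6 to 595, 688 and 1014 normalized counts, where saline mice had 121, 170 and 283. Every recovery mouse was above every saline mouse, with a rise of 4.62 ± 0.32 (adjusted p = 7.2e-15) and a value 2.02 ± 0.32 above saline (adjusted p = 3.8e-05). Sfrp2 rose by 3.06 to 1.99 above saline and Mfap5, of elastic microfibrils, by 1.72 to 0.94 above it. Islr2, a gene outside the fibroblast list and not assigned to a cell type here, also rose past saline. This leucine-rich repeat protein of the cell surface (chr9:58196297-58204319) was at 9.70, 29.6 and 49.1 in saline, 2.53, 9.71 and 16.3 in bleomycin and 188, 285 and 426 in recovery mice. That was a rise of 4.80 ± 0.33 (adjusted p = 7.2e-15) to 3.40 above saline. By contrast Pdgfra, the receptor that marks fibroblasts, differed by 0.06 from bleomycin (95% interval -0.23 to 0.35) and was 1.02 below saline, with all 6 recovery mice below the lowest saline mouse, at 856. Inmt, a methyltransferase, was at a median of 124, 3.45 and 10.5 in saline, bleomycin and recovery and was 3.17 below saline. Its rise of 1.35 did not pass the test (adjusted p = 0.052) and passed it under several other settings.

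**Figure D5:**
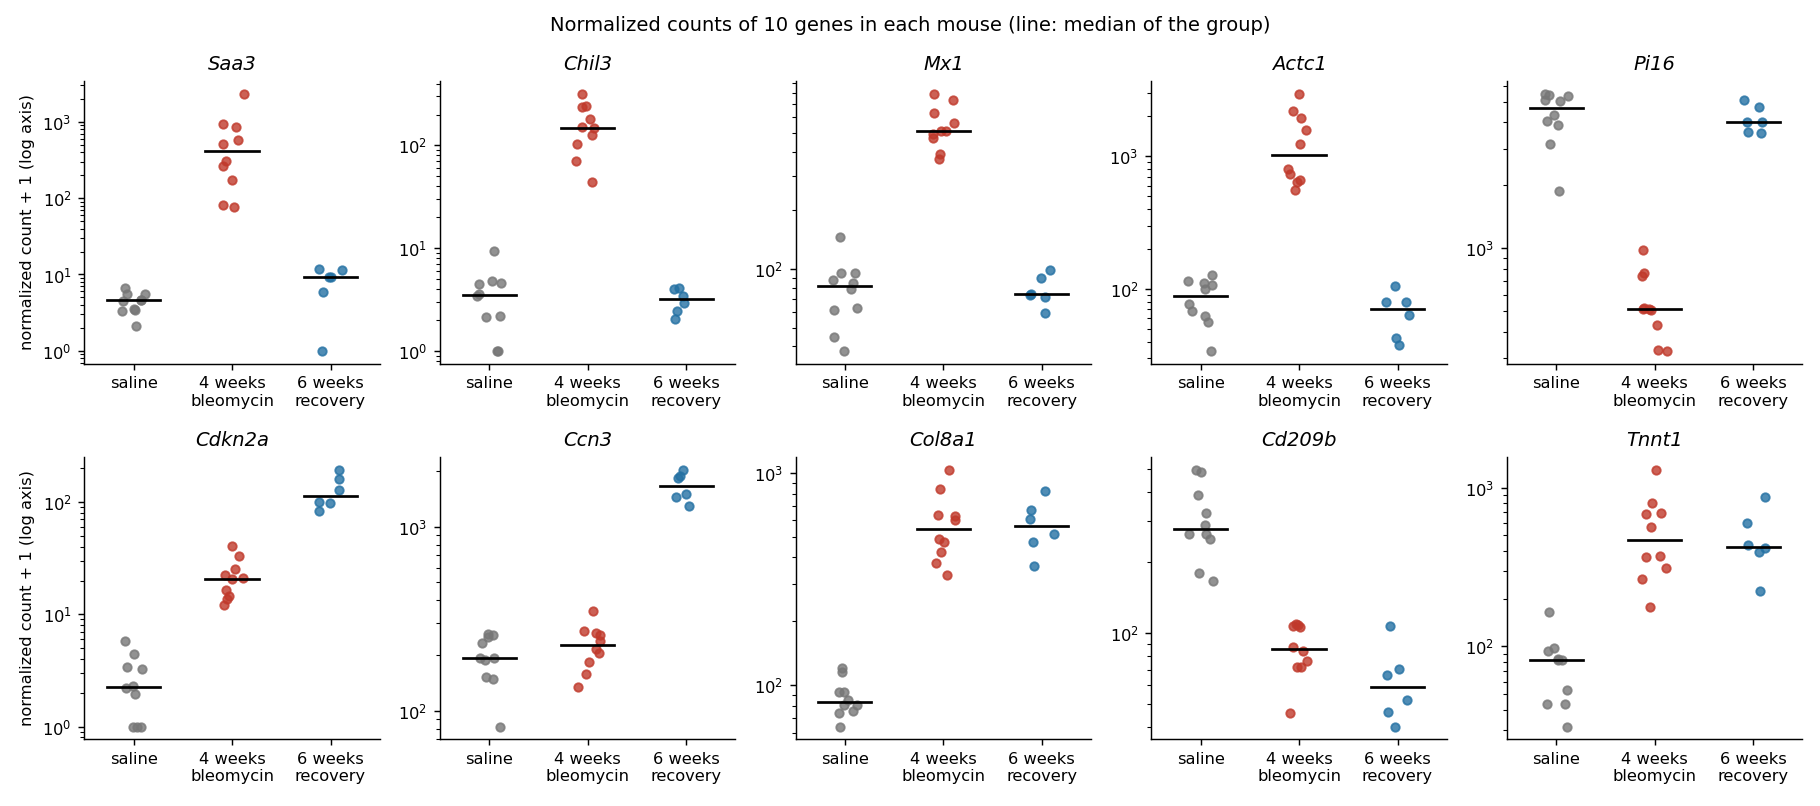
Normalized count + 1 of 10 genes is plotted on a log axis for each mouse (points) with the group median (line) in saline, 4 weeks bleomycin and 6 weeks recovery. Saa3, Chil3, Mx1 and Actc1 are lower in all recovery mice than in any bleomycin mouse, Pi16, Cdkn2a and Ccn3 are higher, and Col8a1, Cd209b and Tnnt1 overlap between those groups and lie apart from saline.

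Matricellular and adhesive genes rose after bleomycin was stopped. Of 24, 14 rose and 0 fell, with a median of 1.13, and 10 were above saline after recovery against 7 at 4 weeks of bleomycin. At 4 weeks 8 of them, 3 of the 5 thrombospondins included, had been below saline, and after recovery 0 were. Ccn3, a secreted CCN protein that acts against Ccn2 (chr15:54745702-54754039), was at 81.1, 192 and 261 in saline, 133, 227 and 348 in bleomycin and 1290, 1672 and 2045 in recovery mice. Saline and bleomycin overlapped and the recovery mice stood apart from both, with a rise of 2.90 ± 0.23 (adjusted p = 2.2e-13) and a value 3.14 ± 0.23 above saline (adjusted p = 1.1e-13). Ccn5 rose by 1.42. Ccn1 and Ccn2, growth factors of fibrosis, were not called against bleomycin, at 0.15 each, and were 1.20 and 1.31 above saline.

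Secreted proteins of scars rose in 7 of 9 cases. Cthrc1, made by collagen-producing fibroblasts, went from 21.9, 54.2 and 83.5 in saline to 50.8, 109 and 236 in bleomycin and 250, 331 and 401 in recovery mice, a rise of 1.61 ± 0.30 (adjusted p = 6.7e-05) to 2.72 above saline. C1qtnf3, an adipokine of the same cells, rose by 1.38, from a median of 1126 to 2907, and was 2.56 above saline. Fbln7 rose by 2.56, Mgp, matrix Gla protein, by 1.10, and fibronectin, Fn1, by 1.16, and these were 1.80, 1.62 and 0.82 above saline. Other members rose to levels not called against saline, among them Eln, elastin, by 1.51, Spon2 by 2.29, Tnxb by 1.35 and the thrombospondins Thbs3, Thbs4 and Comp by 1.45 to 1.66. Periostin, Postn, was at 5522, 8277 and 13240 in bleomycin and 6989, 8623 and 10189 in recovery mice, a difference of 0.04 (95% interval -0.24 to 0.31), and was 0.50 from saline, below the fold threshold.

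Fibrillar collagen genes were not called, other than Col24a1. Col1a1 (chr11:94936224-94953042) was at 18893, 28540 and 57983 in saline, 16440, 37215 and 67224 in bleomycin and 29613, 47073 and 62036 in recovery mice, and all 3 groups overlapped. The difference after bleomycin was stopped was 0.23 ± 0.27 (adjusted p = 0.59, 95% interval -0.32 to 0.77), and Col1a2 gave 0.25 and Col3a1 0.57 (adjusted p = 0.092). Those intervals, which for Col3a1 run from 0.06 to 1.08, do not show that the levels were alike. Col24a1 fell by 0.58, at the fold threshold, and lost the call without any of 9 mice. Bleomycin mouse 3 was the lowest of its group for Col1a1, Col1a2 and Col3a1.

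In other collagens and their processing enzymes few genes were called. Col14a1, which binds to the surface of collagen fibrils, went from 204, 425 and 522 to 1573, 1880 and 2377, a rise of 2.24 ± 0.24 (adjusted p = 1.2e-09) to 1.05 above saline. Col12a1, of the same class, fell by 1.23, a call lost without recovery mouse 5, and Col8a2 rose by 0.86. In all, 2 of 15 such collagens rose and 1 fell, beside 4.80% and 7.14% of all genes. Of 24 processing genes 6 rose and 0 fell, among them the crosslinking oxidase Loxl1, by 1.53, the chaperone Serpinh1, by 0.77, and the prolyl hydroxylase subunit P4ha3, by 1.01, which was 2.77 above saline and whose rise was not called without any 1 of 9 mice. Lox itself was at 396, 610 and 738 in saline, 988, 1201 and 1644 in bleomycin and 903, 1228 and 1897 in recovery mice. It differed by 0.08 from bleomycin (95% interval -0.23 to 0.39) and was 1.10 above saline (adjusted p = 4.7e-06). Of 9 tested small leucine-rich proteoglycans, which bind collagen, 4 rose, Ogn, Omd, Prelp and Aspn, by 0.80 to 1.24.

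Contractile genes of myofibroblasts and smooth muscle were not called, 0 of 10. Acta2, smooth muscle actin, was at 2643, 3488 and 4437 in bleomycin and 2961, 3347 and 4264 in recovery mice, with a difference of -0.03 (95% interval -0.36 to 0.30). Fap and the collagen-binding integrin subunit Itga11 rose by 0.91 and 1.28. Matrix proteases and their inhibitors fell in 8 of 20 cases, including the collagenases Mmp8 and Mmp13, by 2.23 and 1.51, the second a call lost without any 1 of 5 mice, and Timp1, by 1.79, from a median of 408 to 112.

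The TGF-beta and activin list had 4 of 28 genes lower and 3 higher, and 0 of its 6 receptors were called. Gdf15, a stress cytokine of that family, was at 1.14, 3.13 and 5.71 in saline, 42.7, 66.5 and 103 in bleomycin and 11.2, 13.6 and 21.2 in recovery mice. No 2 groups overlapped. The fall was 2.06 ± 0.27 on the log2 scale (adjusted p = 7.6e-08) and left Gdf15 2.00 ± 0.27 above saline (adjusted p = 1.4e-06). Ligands Tgfb1, Tgfb2 and Tgfb3 were not called, at -0.19, 0.19 and 0.43, and Ltbp2, which resembles the proteins that hold latent TGF-beta, fell by 0.94.

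Schwann cell and nerve genes remained above saline without a call between the groups. Of 17, 0 rose and 0 fell after bleomycin was stopped, with a median of 0.14, and 12 were above saline at 4 weeks and 12 after recovery, with medians of 0.70 and 0.92. Gfra3, a receptor for the nerve growth signal artemin, was at 36.5, 71.2 and 107 in saline, 96.8, 165 and 195 in bleomycin and 123, 136 and 188 in recovery mice. All 6 recovery mice lay above the highest saline mouse, and they overlapped the bleomycin mice, with a difference of -0.12 (95% interval -0.55 to 0.32, adjusted p = 0.75) and a value 1.01 ± 0.22 above saline (adjusted p = 0.0019). Gap43, of growing axons and repair Schwann cells, was 1.61 above saline. Pmp22, a protein of peripheral myelin, differed by 0.21 from bleomycin (95% interval -0.06 to 0.48) and was 0.39 from saline, not called in either comparison.

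Of 21 blood endothelial genes, 1 rose and 2 fell, beside 4.80% and 7.14% of all genes, and counts this small describe single genes and not the list. After recovery 11 were above saline, or 7 without recovery mouse 5, beside 3.33% of all genes. At 4 weeks of bleomycin 6 were above saline, or 10 without bleomycin mouse 3. Pecam1, the junction protein CD31, was at 459, 772 and 904 in saline, 1021, 1221 and 1447 in bleomycin and 1025, 1189 and 1330 in recovery mice. It differed by -0.07 (95% interval -0.38 to 0.23) and was 0.67 above saline. The 2 that fell were the selectins Selp and Sele, adhesion molecules for leukocytes, by 1.13 and 0.95. Cldn5, a tight junction protein, rose by 0.65, and not without recovery mouse 5. Among lymphatic genes 0 of 7 were called against bleomycin. Above saline were 4 at 4 weeks of bleomycin and 1, Ccl21a, after recovery, with medians of 0.73 and 0.54. The genes Emcn, Esam, Gfra3, Robo4 and Sparcl1, which the study relates to the alignment of collagen bundles, were 0.72 to 1.01 above saline after recovery. Arhgdib, which it names for fibroblast migration, was at 0.21, and 0 of the 6 were called against bleomycin. The first 5 were chosen on these mice and Arhgdib mainly on cultured fibroblasts and patient data, so the former are not independent evidence of their direction.

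Beyond the lists, 55 genes (predicted genes and pseudogenes left out) were DEGs in the same direction at both times, with both groups apart from saline and a change of less than 1.5-fold between them, 51 above and 4 below saline. Col8a1, a short-chain collagen of vessels and scars (chr16:57624258-57754737), stood at 63.0, 82.2 and 120 in saline, 331, 544 and 1036 in bleomycin and 363, 562 and 823 in recovery mice. The difference was 0.02 ± 0.21 (95% interval -0.41 to 0.44), and recovery was 2.68 ± 0.21 above saline (adjusted p = 1.2e-12). The others furthest above saline were Tnnt1 and then Tmem178, Igsf21, Adprhl1 and Pgpep1l, at 2.56, 1.94, 1.93 and 1.59. The 4 below saline were Cd209b, Cd163, Pdgfra and Bpifc, the last at -0.72. Membership of this set was fixed by the 3 comparisons themselves and carries no test of its own.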

How the data were processed

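One part of a skin biopsy from each of 44 mice was sequenced with 50 bp paired-end reads from a stranded kit. Per the labels and the paper's methods, the authors aligned reads to mm10 with STAR 2.4.0 and normalized counts with DESeq2 1.12.3, and the signal deposited is reads per gene divided by a size factor per mouse. The counting tool, its strand setting and its annotation are not given in the sources used here, so overlapping, antisense and near-identical genes are uncertain. Whole reads were recovered from the steps between values, within a tolerance of 0.01, and 100.0% of the values came out whole in every mouse. Of 43411 genes in the table, 14600 had no read and 98.9% had a symbol. Totals were 8509094 to 15285577 reads on genes per mouse.

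Genes with a mean normalized count above 3 (17037) entered limma-trend (limma 3.58.1, R 4.3.3), with log2(normalized count + 1) as the value and the 5 groups in 1 fit, and p-values were adjusted by Benjamini-Hochberg over all of them. A pseudocount of 1 understates the change of low genes. Groups followed the labels, and intervals are 95% intervals of the fit. In simulated data for the main comparison, limma called 97% of genes changed 3-fold, 91% of those changed 2-fold and 6 unchanged genes of 17037. The changed genes were drawn only from genes well above the filter, and only the recovery group was changed. The percentages therefore do not cover genes near the filter. Alternatives were edgeR 4.0.16 and DESeq2 1.42.0 on recovered reads, other pseudocounts, filters, thresholds, normalizations and groups in the fit, the replicate number as a block, and each mouse of the 2 groups left out in turn.

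The comparison, the 37 gene lists and the rule for named genes were chosen with earlier results of these data known, so no list is independent support. The rule named, among DEGs without overlap, the 8 largest falls and rises, up to 6 genes above and 6 below saline at both times, 3 genes per list and a few by name, 142 in all, of which some are not reported here. Of the list genes, Ifng, Ido1, Ms4a1, Pax5, Ighg2c, Ighg3, Iglc1, Chad and Flg were below the filter, and Mki67, Ryr1, Myh3, Pnpla3, Tchh, Krt36 and Krt85 were not analysed here. Promoter sequences are from RefSeq, and other coordinates are of GRCm38, from GENCODE. The histology and the other groups were not analysed here beyond the shared fit. Python 3.11.15 with pandas 2.3.3, numpy 2.4.6, scipy 1.17.1 and matplotlib 3.10.9 was used.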

Additional observations from a re-analysis of the deposited data

Results flagged for a closer look

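In 358 sets of values, each a named gene or a list mean in the 4 weeks bleomycin or the 6 weeks recovery mice, 27 had a highest or lowest mouse set apart from the others of its group by Dixon's criterion. Chance gives about 1 such set in 20.

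Among recovery mice, mouse 4 was the highest for the cell division mean, at 7.55 against 6.91 to 7.14 in the others, for the melanocyte mean, at 7.38 against 4.50 to 5.49, and for Tyrp1 at 665, Pmel at 630, Dct at 1031 and Sprr2d at 19.5 normalized counts. Mouse 5 was the lowest for the inner root sheath keratins Krt27, at 9.23, and Krt71, at 14.4, and the highest for Fap, at 263. Mouse 1 was the lowest for Pdgfra, at 516, and Plaur, at 63.5. Mouse 2 had a Saa3 value of 0.0, and mouse 6 was the lowest for Tpm3, at 2922.

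Among mice at 4 weeks of bleomycin, mouse 3 was the lowest for the fibrillar collagen mean, at 10.47 against 11.04 to 11.58 in the others, and for Col1a1 at 16440, Col1a2 at 19826, Col3a1 at 17991, Col14a1 at 204, Sparc at 11088 and Sfrp2 at 14.7. The same mouse was the highest for Trp53inp1, at 3261, and Emcn, at 270. Mouse 1 was the lowest for the lymphatic mean, at 8.19, and the highest for Ighg1, at 76.0, and Pcna, at 1213. Mouse 4 was the lowest for Cd209b, at 44.9, and mouse 6 for Mdm2, at 852.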

How the results depend on the processing

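Of 11894 values computed under 30 other settings, 16 of them leaving out 1 mouse, 11573 kept their side of the threshold or their size. No named gene with a call changed direction. With 1 mouse left out, the small medians of the cell division list (-0.025 to 0.132), the slow muscle list (-0.013 to 0.196) and the guidance list changed sign. Without a fold threshold the counts of higher, lower and all DEGs were 1980, 2280 and 4260 for recovery against bleomycin, 3138, 3104 and 6242 for bleomycin against saline, and 851, 696 and 1547 for recovery against saline. By edgeR 855 genes were higher and 1295 lower after recovery than at 4 weeks of bleomycin, and by DESeq2 891 and 1301, while for recovery against saline DESeq2 gave 451 lower genes. With mice left out, recovery against bleomycin gave 733 to 838 higher and 1110 to 1245 lower genes. Recovery against saline gave 354 to 600 higher, 150 to 437 lower and 504 to 1037 in all, the lowest without recovery mouse 5. The medians of the p53 list ran from -0.46 to -0.34 and of the guidance list from -0.033 to 0.149, and the complement median was -0.30 with a filter of 10 normalized counts in 6 mice.

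The labels number the mice of each group from 1, but the numbers belong to different animals, and same-numbered mice did not deviate together (correlations of deviations of 0.028, 0.116, -0.080, -0.073, 0.216 and 0.015). With the replicate number as a block, 919 genes were higher and 1177 lower than at 4 weeks of bleomycin, 2096 in all. Bleomycin against saline then gave 1783 and 1252, and recovery against saline 759 and 370. Col3a1 (0.74) and Col6a1 (0.70) passed the test with the block and not in the reported fit.

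Among the 142 named genes 6 lost and 12 gained a call against bleomycin under some setting. The biopsies are mixtures of cells, depth limits genes near the filter, and 6 recovery mice set the width of the intervals.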
